A study of Mus musculus with 12 samples.

Results

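Deposited cluster 12 was a small set of droplets in a sort that had been gated on a leukocyte marker. In its pooled RNA, pigment-cell genes stood furthest above the other clusters. Its members were all cells to which the authors' cell table gave cluster number 12, whatever their deposited label, and they numbered 118 of 45477 cells. The working name of the set called them cells of low RNA with mixed labels. The mixed labels were borne out by the table, with 7 labels of the 10 in use. The low RNA held for 62 cells, which carried fewer than 1000 RNA UMIs (unique molecular identifiers, each 1 counted RNA molecule), whereas 26 cells carried 10000 or more, up to 148002. Those 26 cells held 91.6% of the cluster's RNA UMIs, so the pooled RNA mostly describes them. The 62 cells had a median of 3 UMIs of a list of melanoma genes and 6 of a list of T cell genes. The set is therefore called cluster 12 here, and its cells are described by the genes they carry.

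The tumours were B16-F10, a transplantable pigmented mouse melanoma, grown in the skin of Rag1-deficient B6.129S7-Rag1tm1Mom/J mice, which make no mature T or B cells. All 6 mice received Pmel T cells, which are CD8+ and carry the Thy1.1 mark, by retro-orbital injection. In the CAL-101 group (3 mice) the T cells had been treated in culture with CAL-101, or idelalisib, which blocks the delta form of the lipid kinase PI3K. In the control group (3 mice) they had been treated with vehicle. Live CD45.2+ cells were sorted from the dissociated tumours and stained with a cocktail of barcoded antibodies, so that each droplet gave RNA UMIs and antibody tags. CD45.2 is the form of CD45, a surface protein of nearly all leukocytes, that C57BL/6 mice carry.

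Pigment cells and melanomas derived from them make melanin in melanosomes. The enzymes tyrosinase (Tyr), tyrosinase-related protein 1 (Tyrp1) and dopachrome tautomerase (Dct) carry out the synthesis, and Pmel and Mlana encode melanosome proteins. The transcription factor MITF drives these genes by binding E-box motifs in their promoters, and SOX10 acts above it. The Pmel T cells used here carry a T cell receptor that recognises a peptide of the Pmel protein. CD44, a hyaluronan receptor, and CD49f, integrin alpha 6, a laminin receptor, are found on many leukocytes and also on melanoma and other adherent cells.

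The promoters of 3 pigment genes that lead the results below are shown because these genes were found together in the same cells. They are RefSeq windows of build GRCm38.p6, from 250 bases before to 50 after the gene's start, read 5′ to 3′ on the gene's own strand: Tyr at chr7:87493463-87493762 (minus strand), Tyrp1 at chr4:80833963-80834262 (plus strand) and Dct at chr14:118052197-118052496 (minus strand). Capitals mark the 9 letters AGTCATGTG in Tyr and Tyrp1, and the core CATGTG, on either strand, in Dct.
Tyr: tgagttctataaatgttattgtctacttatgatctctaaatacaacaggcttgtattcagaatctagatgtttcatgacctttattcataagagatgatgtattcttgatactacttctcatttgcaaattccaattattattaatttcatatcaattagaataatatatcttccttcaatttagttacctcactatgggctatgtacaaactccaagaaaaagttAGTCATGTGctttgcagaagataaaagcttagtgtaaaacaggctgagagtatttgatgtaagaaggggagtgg
Tyrp1: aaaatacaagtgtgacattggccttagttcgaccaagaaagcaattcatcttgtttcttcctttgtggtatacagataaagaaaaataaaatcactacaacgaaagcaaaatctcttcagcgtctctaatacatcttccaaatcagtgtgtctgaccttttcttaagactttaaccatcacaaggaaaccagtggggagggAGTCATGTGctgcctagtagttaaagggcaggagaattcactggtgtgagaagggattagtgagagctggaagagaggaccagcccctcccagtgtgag
Dct: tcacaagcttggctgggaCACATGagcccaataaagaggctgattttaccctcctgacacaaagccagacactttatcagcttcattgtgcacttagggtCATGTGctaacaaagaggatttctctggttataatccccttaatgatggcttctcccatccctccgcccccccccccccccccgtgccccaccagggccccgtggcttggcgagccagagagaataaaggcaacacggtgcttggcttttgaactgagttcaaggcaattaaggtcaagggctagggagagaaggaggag
The core began at position -21 in Tyr, at -46 in Tyrp1 and at -232 and -150 in Dct, counted from the start. CATGTG, searched on both strands, was found in 4650 of 32851 windows of the same length (14.2%), and AGTCATGTG, which contains it, in 90 (0.274%). Of the 13 genes of the melanoma list used below, 8 had a window, 7 of these held CATGTG and 2 held AGTCATGTG. A match describes letters, not a bound site.

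Protein was read through 15-base tags on the antibodies. The tags of 5 antibodies on which the protein results turn are given as the authors' antibody reference lists them, in lower case with no part marked.
CD44: tggcttcaggtccta
CD49f: ttccgaggatgatct
CD98: tccttcctttgtagc
CD45: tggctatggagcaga
I-A/I-E: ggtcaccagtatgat

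The deposited matrices held UMI counts for 32285 genes and 102 antibodies in 6 libraries of 6152 to 9147 cells. The libraries held 75716841 to 97933109 RNA UMIs and 12748632 to 18237209 tags, and the median cell of a library 6767 to 8977 RNA UMIs. A barcode occurred in more than 1 library for 249 barcodes, of which 3 belonged to cells of cluster 12. Each mouse is 1 replicate.

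Cells of cluster 12 were found in every mouse. The CAL-101 mice 1, 2 and 3 had 11, 65 and 6 of them and the control mice 1, 2 and 3 had 8, 14 and 14. CAL-101 mouse 2 thus held more than any other, and most of its cells were of low depth. As a share of the cells of a mouse this was 0.179% (95% exact binomial interval 0.0893 to 0.320), 0.901% (0.696 to 1.15) and 0.0882% (0.0324 to 0.192) in the CAL-101 mice. In the control mice it was 0.0947% (0.0409 to 0.187), 0.181% (0.0992 to 0.304) and 0.153% (0.0837 to 0.257). The intervals cover counting error only. The groups overlapped. The mean share was 0.389% ± 0.445 in the CAL-101 group and 0.143% ± 0.0442 in the control group (SD, n = 3 each), a difference of 0.246 points (exact 2-sided permutation p = 0.7, where 3 mice against 3 cannot go below 0.1). Without CAL-101 mouse 2 the difference turned to -0.00956 points, with 0.134% in the CAL-101 and 0.143% in the control mice. The cells of cluster 12 were also set against the number of cells with no T cell label. The ratio was 3.52% ± 5.15 in the CAL-101 and 0.412% ± 0.104 in the control mice (SD, n = 3 each, exact permutation p = 0.2). It was 9.46% in CAL-101 mouse 2. It is not a share of those cells, since 63 of the 118 cells of cluster 12 carried a T cell label.

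**Figure D1:**
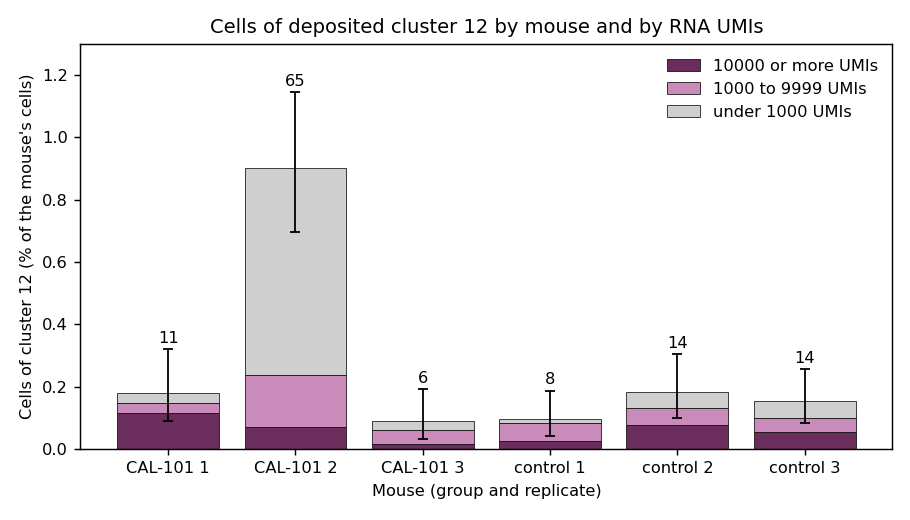
Cells of cluster 12 as a percent of all cells of each mouse (y axis) for the 3 CAL-101 and 3 control mice (x axis), stacked by the number of RNA UMIs per cell, with the number of cells above each bar and the 95% exact binomial interval of the whole share. CAL-101 mouse 2, with 65 cells at 0.901%, stands above the 5 other mice at 0.0882 to 0.181%, and most of its bar is cells under 1000 UMIs.

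RNA content divided the cluster. Cells were put into bands of under 1000, 1000 to just under 10000 and 10000 or more RNA UMIs, with limits chosen after the data were seen, and these held 62, 30 and 26 cells. The neighbours of the lower limit had 998 and 1105 UMIs and those of the upper one 9695 and 10776, so neither limit marks a clear break in depth. The median cell of the 3 bands had 554, 2687.5 and 48738.5 UMIs from 372, 947.5 and 7479 genes, so that the top band lay far above the median of the other clusters (7785 UMIs). The 26 cells of the top band held 91.6% of all RNA UMIs of the cluster, and the 62 of the lowest band 2.30%. A pooled value for the whole cluster therefore mostly describes the top band.

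The bands were spread unevenly over the mice. The top band had 7, 5 and 1 cells in the CAL-101 mice and 2, 6 and 5 in the control mice, which came to 0.0659% ± 0.0496 and 0.0520% ± 0.0271 of cells (SD, n = 3 each; exact permutation p = 0.8). The middle band had 2, 12 and 3 cells in the CAL-101 and 5, 4 and 4 in the control mice (exact permutation p = 0.9). The lowest band had 2, 48 and 2 cells in the CAL-101 and 1, 4 and 5 in the control mice (exact permutation p = 0.8). CAL-101 mouse 2 alone thus gave 48 of its 62 cells.

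Mitochondrial RNA also differed between the bands. The median mitochondrial share of UMIs was 4.75% in the top band, 7.17% in the middle band and 0.372% in the lowest band, against 3.44% in the other clusters. The median of the lowest band rested on CAL-101 mouse 2: the 14 cells of the 5 other mice had a median of 1.08%, and 4 of them were above 15%. Low depth in cluster 12 did not go with the high mitochondrial share seen elsewhere: the 1517 other cells under 1000 UMIs had a median of 22.4%, and cluster 6, a deposited cluster of 2126 cells with a median of 865.5 UMIs, had 34.9%. Malat1, a long non-coding RNA kept in the nucleus, stood at 2263 CPM (UMIs of a gene, pooled over cells, per 1000000 UMIs) in the lowest band and at 6399 CPM in the other cells under 1000 UMIs. Messages of cytosolic ribosomal proteins took 28.3% of the UMIs of the lowest band and 20.2% of those of the other cells under 1000 UMIs. With mitochondrial UMIs left out of the total, these shares were 29.6 and 26.9%.

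The deposited labels followed the depth. In the top band 14 of 26 cells were labelled monocytes, 7 dendritic cells, 4 NK cells and 1 T cells. In the lowest band the labels were T cells (35 cells), CD8+ T cells (6), CD4+ T cells (5) and NK cells (16), with no myeloid label. The middle band held 15 cells labelled T cells, 5 NK cells, 5 monocytes, 3 progenitors, 1 dendritic cells and 1 CD8+ T cells. The sources used here do not say how the labels were assigned.

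The leading genes of the cluster were those of pigment cells. The genes were ranked by the log2 ratio of pooled CPM in cluster 12 over the highest other deposited cluster (with 10 CPM added to each), and the values describe how the cluster stands apart, without a test, since its cells were grouped by their RNA. Tyrp1 stood first, at 2942 CPM in cluster 12 against 4.04 CPM in the next cluster, a log2 ratio of 7.72. Dct followed with 4230 against 11.7 CPM (7.61), then Car6, a secreted carbonic anhydrase (7.09), Pmel (6.96) and Mlana (6.63). The next 15 genes were Syt4, Ptgds, Nav3, Ankfn1, Tyr, Tinagl1, Sparc, Hmga2, Cryab, Car9, Slc45a2, Tm4sf1, Nrcam, Gpnmb and Chsy3. Among them, Slc45a2 encodes a melanosome transporter, Gpnmb a melanosome and lysosome glycoprotein, Hmga2 a chromatin protein of embryonic and tumour cells and Car9 a hypoxia-induced carbonic anhydrase. In all, 6 of the 20 leading genes and 5 of the first 10 were members of the melanoma list, out of 1452 genes that passed the rule's level and detection limits.

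The melanoma list held 13 genes: Mlana, Pmel, Dct, Tyrp1, Tyr, Sox10, Mitf, Slc45a2, Oca2, Mc1r, Trpm1, Slc24a5 and Cdh19. UMIs of 3 or more of them were found in 73 of 118 cells (61.9%, 95% exact binomial interval 52.5 to 70.6), against 66 of 45359 cells of the other clusters (0.146%). By band these were 26 of 26 cells in the top, 23 of 30 in the middle and 24 of 62 in the lowest band. With every cell thinned to 500 UMIs they were 18, 6 and 21 cells, against 1 cell of all other clusters. At least 8 of the 13 genes were found in 27 cells of cluster 12 and in no cell elsewhere, where the highest number was 6. The UMI number of the list in 1 cell had a lowest, median and highest value of 11, 756 and 2211 in the top band, 0, 7.5 and 85 in the middle band and 0, 3 and 8 in the lowest band.

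RNAs of melanosome enzymes and structural proteins were found in every cell of the top band or nearly so, at levels that varied widely between cells. The lowest 3 cells had 11, 19 and 23 UMIs of the list in 14422, 12858 and 13847 UMIs. Dct was present in 26 of 26 cells with 2 to 674 UMIs and 4475 CPM pooled, against 0.658 CPM in the other clusters. Tyrp1 was likewise present in all 26, with 1 to 619 UMIs and 3138 CPM, against 0.524 CPM in the other clusters. Mlana was present in all 26 (1450 CPM) and Pmel in 25 (2067 CPM), against 0.563 and 1.81 CPM in the other clusters. These 4 genes each exceeded 1000 CPM in the top band and stayed under 2 CPM over the other clusters pooled. Tyr, the rate-limiting enzyme, was present in 22 cells of the top band at 739 CPM, against 0.0988 CPM in the other clusters.

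Regulators and transporters of the lineage were present at lower levels in the same cells. Mitf reached 308 CPM in 22 of the 26 top-band cells, and Sox10 107 CPM in 22, against 1.57 and 0.151 CPM in the other clusters. Mitf was not confined to cluster 12, since it reached 57.6 CPM in cluster 11, a cluster rich in MHC class II genes, while Sox10 had no UMI there. The melanosome transporter genes Slc45a2 and Oca2 stood at 463 and 205 CPM and the calcium exchanger gene Slc24a5 at 254 CPM. The melanocortin receptor gene Mc1r stood at 156 CPM and the channel gene Trpm1 at 161 CPM. Cdh19, a cadherin of the neural crest lineage, stood at 176 CPM against 0.0149 CPM in the other clusters.

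Pigment genes were found in the top-band cells of every mouse. Dct stood at 4545, 4209 and 8391 CPM in the CAL-101 mice and at 2177, 4097 and 4344 CPM in the control mice. Tyrp1 stood at 3976, 2493 and 4046 CPM in the CAL-101 and at 1205, 2092 and 3578 CPM in the control mice. The groups overlapped for both genes, and the lowest values were those of control mouse 1, which had 2 top-band cells. The CAL-101 mouse with the highest Dct level had 1 such cell.

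**Figure D2:**
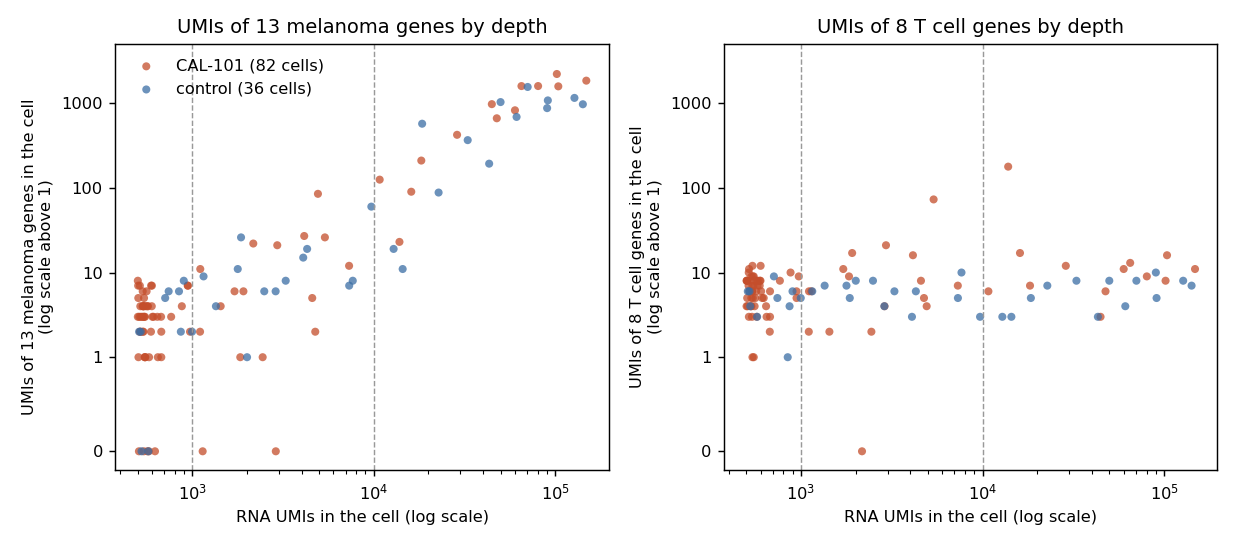
UMIs in each of the 118 cells of cluster 12 for the 13 melanoma genes (left, y axis) and 8 T cell genes (right, y axis) against the cell's RNA UMIs (x axis, log scale), with CAL-101 cells in orange, control cells in blue and dashed lines at 1000 and 10000 UMIs; the y axes are linear below 1 and log above. Melanoma gene UMIs climb with depth up to 2211, while T cell gene UMIs keep a median of 6 to 8 in every band, with 3 cells above 20.

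Cells under 1000 UMIs carried the same 4 leading pigment genes at a few UMIs each. When the genes were ranked in the lowest band alone, Mlana, Pmel, Tyrp1 and Dct came first. Dct was present in 33 of 62 cells (53.2%), against 1.12% of the 1517 other cells under 1000 UMIs. Tyrp1 was present in 40.3% against 0.461%, Pmel in 28 of 62 cells against 0.330% and Mlana in 43.5% against 0.396%. Median depths were 554 UMIs in the lowest band and 690 in the other low cells, so that these shares were compared at like depth. At least 1 UMI of the list was found in 88.7% of the lowest band and in 2.97% of the other low cells, and the mean was 3.26 and 0.0343 UMIs a cell. In CAL-101 mouse 2, which gave 48 of the 62 cells, these shares were 91.7% and 6.02%, and the means 3.29 and 0.0723 UMIs. The 14 lowest-band cells of the 5 other mice had a share of 78.6%.

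The make-up of the pigment UMIs was similar but not the same across depth. Dct, Tyrp1, Pmel and Mlana took 32.7, 22.9, 15.1 and 10.6% of the list's UMIs in the top band. In the lowest band, with 202 UMIs in all, they took 27.2, 18.3, 20.8 and 21.3%. Sox10, Oca2 and Mc1r had no UMI in the lowest band, where 62 cells gave 38000 UMIs in all. That total allows up to 3 counts, 78.9 CPM, for a gene with none. Sox10 stood at 107 CPM in the top band, but the whole list took a smaller share of UMIs in the lowest band. In the top band Sox10, Oca2 and Mc1r took 0.781, 1.49 and 1.14% of the list's UMIs. Of 202 UMIs such shares are few counts, so the zeros do not set these genes apart from the rest of the list. Of the 20 genes leading the lowest band, 6 also led the top band and 4 were members of the melanoma list. In the middle band 12 of 20 led the top band too.

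RNA profiles of the bands were also set beside each other as a whole. The 1527 genes used had at least 100 CPM in the lowest band, with mitochondrial genes left out. Over them, log2 levels of the lowest band had a Pearson correlation of 0.845 with the middle band and 0.713 with the top band. It was 0.831 with the other cells under 1000 UMIs and 0.821 with cluster 6. Clusters 13, 3, 2, 5, 8, 7 and 11 had 0.782, 0.762, 0.758, 0.751, 0.744, 0.743 and 0.738. Clusters 0, 10, 9, 1 and 4 had 0.694, 0.674, 0.617, 0.592 and 0.577. These are descriptions across genes of pooled sums that share depth and libraries. Over these genes the lowest band was thus no closer to the top band than to low-depth cells of other clusters or to several deeper clusters. Its pigment genes stood apart from those of the low-depth cells.

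T cell genes behaved in another way. The list Cd3d, Cd3e, Cd3g, Cd8a, Cd8b1, Cd4, Trac and Trbc2, which encode T cell receptor chains, CD3 chains and coreceptors, had 3 or more genes present in 56 of 118 cells (47.5%). The UMI number of the list had a median of 8 in the top, 6 in the middle and 6 in the lowest band, although the median depth of these bands differed from 48738.5 to 554 UMIs. Over the 118 cells its Spearman correlation with RNA UMIs was 0.164, against 0.715 for the melanoma list and 0.568 for the pan-leukocyte list, a description over cells that share 6 libraries. Cells of other types held similar numbers: the median was 5 in cluster 10, led by neutrophil genes, 6 in cluster 0, led by NK cell genes, and 128 in the T cell clusters 1 to 5. These numbers are not scaled to depth, and the median cell had 3028, 6277 and 10398 UMIs in these sets. As a share of UMIs, the T cell list took 0.645, 1.11 and 0.502% of the lowest band in the CAL-101 mice. In the control mice it took 0.760, 0.891 and 0.529%. How much of these UMIs came from RNA outside the cells was not measured.

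Trbc2, the constant region of the T cell receptor beta chain, shows this gene by gene. It was found in 95.2% of the lowest band, in 95.8% of the other cells under 1000 UMIs and in 95.5% of cluster 10, whose median cell had 3028 UMIs. The share in the lowest band, at a median of 554 UMIs, was not above the share in cluster 10. In the top band it was found in all 26 cells but at 162 CPM, against 8959 CPM in clusters 1 to 5. Only 3 cells of the cluster had more than 20 UMIs of the list, and the others had at most 17. All 3 were labelled T cells and came from CAL-101 mouse 2. They had 178, 73 and 21 UMIs of the T cell list beside 23, 26 and 21 UMIs of the melanoma list.

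Leukocyte genes were low in the top band as a share of its UMIs, although their UMI number was higher there. The pan-leukocyte list had a median of 30.5 UMIs a cell in the top band and 4 in each of the other bands. Ptprc, which encodes CD45, was found in 7 of 26 top-band cells at 49.5 CPM, against 94.6% of cells and 1288 CPM in the other clusters. Of the 75 Ptprc UMIs of the top band, 47 came from 1 cell. Ptprc was found in 24.2% of the lowest band, against 30.0% of the other cells under 1000 UMIs. Coro1a, a leukocyte actin regulator, stood at 24.4 CPM in the top band against 998 CPM in the other clusters, and at 974 CPM in the lowest band. Cd52, a small surface glycoprotein of leukocytes, stood at 72.6, 453 and 2526 CPM from the top to the lowest band, against 2005 CPM in the other clusters.

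Markers of the deposited myeloid labels were at or near 0 in the top band. Of the monocyte and macrophage list, Lyz2 had 1 UMI, Csf1r had 2, and Adgre1, C1qa, C1qb, C1qc, Mrc1, Fcgr1 and Ms4a7 had none in 1514824 UMIs. Of the 1874 UMIs of that list, 1814 were from Apoe, a lipid carrier that macrophages and also melanocytic cells make. The dendritic cell markers Xcr1, Clec9a, Cd209a and Ccl22 had none. MHC class II genes were present instead: Cd74, the invariant chain, was found in 18 of 26 cells at 702 CPM and H2-Aa in 18 at 346 CPM, against 4789 and 1938 CPM in cluster 11. The NK cell list had 79 UMIs, of which 67 came from 1 cell.

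Markers of the other cell types of skin and vessel were also at or near 0 in the top band, apart from single genes. Col1a1, Col1a2, Col3a1 and Dcn of the fibroblast list had no UMI, and 716 of its 785 UMIs came from Sparc, a matrix protein that melanomas also make. Of the endothelial list, Cdh5, Kdr, Flt1, Cldn5, Tie1 and Emcn had none, while Eng had 137 and Pecam1 127 UMIs of 379. Rgs5 and Myh11 of the pericyte list, Krt5 and Krt14 of the keratinocyte list, and Ngfr and Foxd3 of the Schwann cell list had none. S100b, a calcium-binding protein of Schwann cells and melanocytes, gave 315 of the 606 Schwann list UMIs. Haemoglobin genes had no UMI, against 3594 CPM of Hbb-bs in cluster 6. Neutrophil, B cell, basophil and mast cell, and eosinophil lists had 4, 10, 10 and 0 UMIs.

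**Figure D3:**
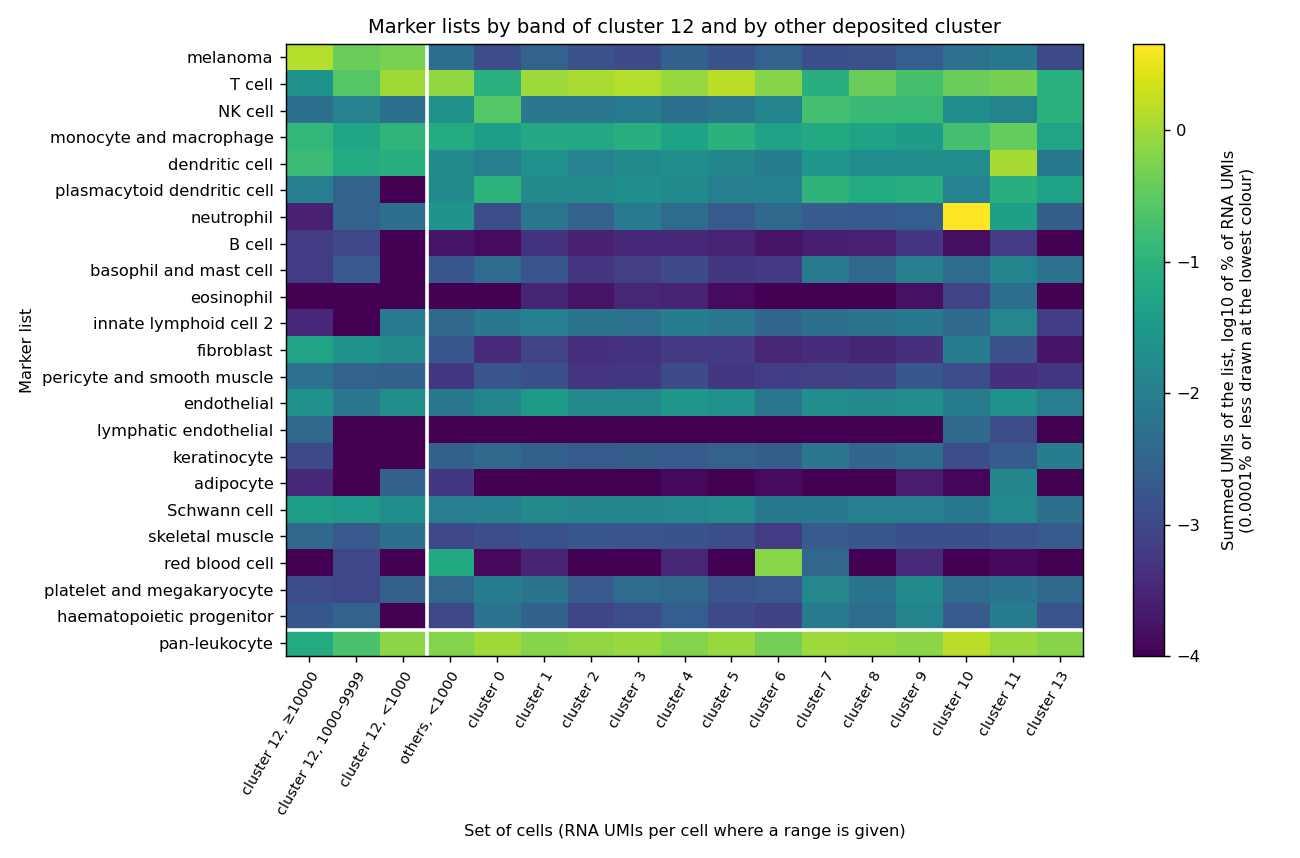
Summed UMIs of 22 lineage lists and the pan-leukocyte list (rows) as log10 of the percent of RNA UMIs (colour), in the 3 bands of cluster 12 (left of the white line), in the other cells under 1000 UMIs and in each other deposited cluster (columns). The melanoma row is highest in the top band, at 1.37% of UMIs, and is 0.532% in the lowest band against 0.00484% in the other cells under 1000 UMIs.

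Other programmes were present in the top band. Cell cycle genes were found in part of the cells: Top2a, a DNA topoisomerase of dividing cells, in 16 of 26 and Mki67, a proliferation marker, in 14. Glycolysis genes were high in the pooled sum, with Pgk1 at 2395, Aldoa at 2173 and Ldha at 1931 CPM, against 486, 669 and 885 CPM in the other clusters. Car9 stood at 629 CPM against 0.459 CPM. Vim, the intermediate filament vimentin, stood at 3457 CPM against 825 CPM. Met, the hepatocyte growth factor receptor, stood at 832 CPM against 0.537 CPM. Hmga2 stood at 467 CPM against 0.229 CPM. Cd63, a tetraspanin of melanosomes and lysosomes, stood at 1983 CPM against 3.48 CPM, and at 947 CPM in the lowest band.

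The antibody tags of the top band differed from those of the leukocyte clusters in the same direction. CD45 tags made up 0.527% of all tags in the top band, against a median of 10.0% and a range of 2.28 to 11.2% over the 13 other clusters. By mouse the CD45 share in the top band was 1.52, 0.617 and 0.0330% in the CAL-101 mice and 0.0895, 0.0957 and 0.0816% in the control mice. CD45.2 tags, the marker of the sort, made up 0.322% in the top band, against 0.764 to 1.84% in the other clusters. The sort was for CD45.2+ cells, and both CD45 antibodies were thus lower in the top band than in any other cluster. It is not known whether tags entered the deposited clustering, so these values too are given without a test.

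CD44 was the most abundant tag of the top band. It made up 14.3% of tags there, 4.59% in the middle and 1.75% in the lowest band, against a median of 4.45% and a range of 0.509 to 11.02% in the other clusters, where cluster 10 was highest. By mouse the top band had 21.7, 7.63 and 11.1% in the CAL-101 mice and 6.51, 13.1 and 17.6% in the control mice, so the groups overlapped. Control mice 1 and 2 each had a top-band cell of 89.7 and 88.6% mitochondrial UMIs, with 12571 and 11015 tags. In cells of any depth with 8 or more melanoma genes, CD44 made up 21.7, 7.03 and 10.3% in the CAL-101 mice. In the control mice it was 15.2, 23.2 and 17.6%. The share varied among cells, with a lowest, median and highest value of 0.148, 18.7 and 34.8%. CD44 RNA was found in 23 of 26 top-band cells at 367 CPM, against 203 CPM in the other clusters and 1645 CPM in cluster 10.

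CD49f had a share of tags in each band above that of every other cluster. It made up 4.56% of tags in the top, 3.31% in the middle and 3.47% in the lowest band, against a median of 1.53% and a range of 1.09 to 2.50% in the other clusters. The other cells under 1000 UMIs had 2.81%, so that low-depth cells of other clusters exceeded that median too. Isotype control tags took 0.724, 0.924 and 1.00% of tags from the top to the lowest band, against 0.362% over the other clusters. Relative to these isotype shares, CD49f in the middle and lowest bands did not exceed the median of 1.53% of the other clusters. By mouse the top band had 5.38, 3.65 and 4.67% in the CAL-101 mice and 3.75, 4.67 and 4.35% in the control mice. In cells with 8 or more melanoma genes it was 5.38, 3.54 and 4.71% in the CAL-101 mice and 5.16, 6.38 and 4.35% in the control mice. Itga6, the gene of CD49f, had only 41 UMIs in 14 of the 26 cells, at 27.1 CPM against 29.0 CPM in the other clusters.

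In the top band 20 of the 95 antibodies other than isotype controls had a share above that in every other cluster, as did 1 of the 7 isotype controls. For 14 of the 20 the highest other cluster was cluster 6. Its isotype control tags took 0.740% of all tags, against 0.724% in the top band. Those named here were chosen after their values were seen. The 20 also held antibodies to markers of B cells and macrophages, among them CD79b at 0.983% against at most 0.701% and CD169 at 1.22% against at most 1.05%. CD98, the heavy chain of an amino acid transporter, made up 12.3% of tags, against 1.47 to 4.40% in the other clusters. CD107a, a lysosomal membrane protein, made up 3.12% against at most 1.07%, CD63 1.81% against at most 0.723%, and the tetraspanin CD9 2.02% against at most 1.52%. CD274, the ligand PD-L1, made up 3.10% against at most 1.36%, and CD317, an interferon-induced protein, 1.31% against at most 0.332%. By mouse CD9 made up 1.92, 0.864 and 3.91% in the CAL-101 mice and 1.32, 1.56 and 2.03% in the control mice. CAL-101 mouse 2 and control mouse 1 thus lay under 1.52%. CD274 made up 1.43, 1.74 and 6.76% in the CAL-101 mice and 1.62, 1.63 and 4.98% in the control mice. For both, the highest value was that of the 1 top-band cell of CAL-101 mouse 3. I-A/I-E, the MHC class II protein, made up 3.98% against a median of 0.272% and a highest value of 10.7% in cluster 11. The endothelial marker CD31 stood at 0.104%, which was 1.00 times the mean of the 7 isotype control antibodies, whereas CD44 was 139 and CD49f 44.1 times that mean. For CD44 this ratio was higher in clusters 10 and 11. They had 11.02 and 7.34% CD44 tags with 0.391 and 0.336% isotype control tags in all, against 0.724% isotype control tags in the top band. CD9 too had a higher ratio in clusters 0, 10 and 11, with 1.52, 1.19 and 1.27% CD9 tags. Isotype control tags took 0.492% in cluster 0.

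Tags of the lowest band had a different order. Ly-6C came first at 10.5%, above its range of 3.21 to 8.94% in the other clusters, against 1.81% in the top band. By mouse the lowest band had 6.11, 10.9 and 4.34% in the CAL-101 mice and 13.7, 7.80 and 11.1% in the control mice, so that 3 of 6 mice lay within that range. Without CAL-101 mouse 2 the pooled share was 8.33%, also within it. A single cell of that mouse held 27.5% of the band's tags, and without it the pooled share was 13.6%. CD45 made up 0.647% and CD8a 0.609%. Isotype control tags took 1.00% of all tags in the lowest band and 0.724% in the top band, against 0.851% in the other cells under 1000 UMIs and 0.362% over the other clusters. The median cell of the lowest band had 345.5 tags and that of the top band 4096. CD199, CD304 and CD210 made up 4.11, 4.14 and 3.72% of tags in the lowest band. In each of these 3 the highest other cluster was cluster 6, at 3.29, 2.92 and 3.05%.

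**Figure D4:**
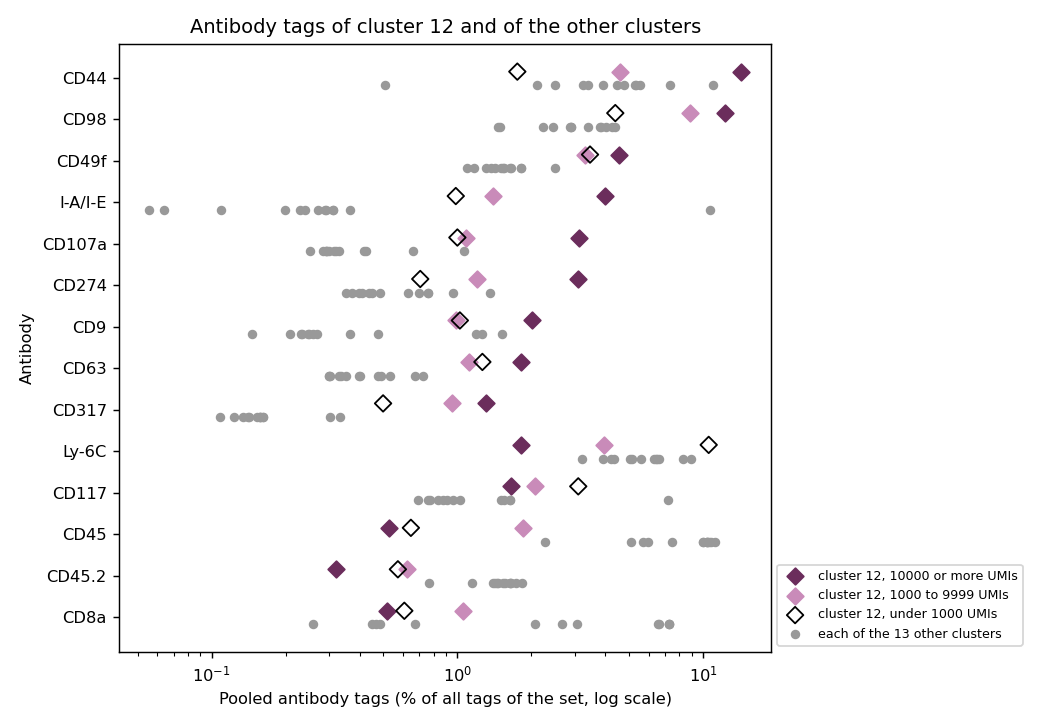
Pooled share of all antibody tags (x axis, percent, log scale) for 14 antibodies (rows) in the 3 bands of cluster 12 (diamonds) and in each of the 13 other clusters (grey points). The top band lies to the right of all other clusters for CD44, CD98, CD49f, CD107a, CD274, CD9, CD63 and CD317 and to their left for CD45 and CD45.2.

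Cells with 8 or more melanoma genes were set apart for the comparison of RNA with protein in the same cell. There were 27, from 4926 to 148002 UMIs, and their labels were monocytes (15), dendritic cells (7), NK cells (2), T cells (2) and progenitors (1). They numbered 7, 5 and 3 in the CAL-101 mice and 2, 5 and 5 in the control mice, or 0.0757% ± 0.0353 and 0.0477% ± 0.0214 of cells (SD, n = 3 each; exact permutation p = 0.4). MHC class II expression varied among them: Cd74 and the H2 class II genes together had 50 or more UMIs in 10 cells and 10 or fewer in 12. These counts are not scaled to depth. Scaled to it, H2-Aa, H2-Ab1 and H2-Eb1 together ran from 0 to 9858 CPM in a cell, with a median of 406 CPM. The I-A/I-E share of a cell followed the H2-Aa, H2-Ab1 and H2-Eb1 level with a Spearman correlation of 0.830 over the 27 cells, from 0 to 21.6% of tags. It was 0.589 for CD317 with Bst2, 0.514 for CD49f with Itga6 and 0.382 for CD274 with Cd274. It was 0.195 for CD107a with Lamp1, 0.170 for CD44 with Cd44, 0.114 for CD63 with Cd63, 0.111 for CD98 with Slc3a2 and -0.0743 for CD9 with Cd9. These values describe cells that share 6 mice and differ in depth, and the 9 pairs were not tested.

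**Figure D5:**
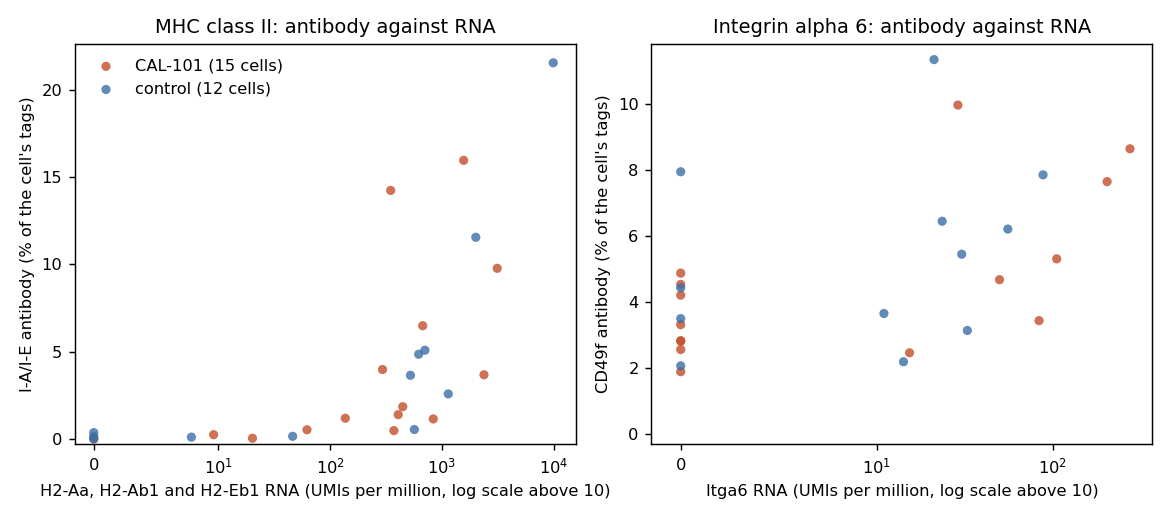
Antibody share of the cell's tags (y axis, percent) against the RNA level (x axis, CPM, log above 10) in the 27 cells with 8 or more melanoma genes, for MHC class II (left) and integrin alpha 6 (right), with CAL-101 cells in orange and control cells in blue. Cells without class II RNA had almost no I-A/I-E tags, while CD49f tags were present also in cells without an Itga6 UMI.

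RNA of cluster 12 was compared between the groups by summing UMIs per mouse. The sums were 504276, 220885 and 96325 UMIs in the CAL-101 mice and 72826, 431421 and 328747 in the control mice. No gene of 4571 tested passed an adjusted p of 0.05 in edgeR's quasi-likelihood test (0% called). At an unadjusted p under 0.05 there were 94 genes, and DESeq2 called 0. With no filter on low counts edgeR called 14 of 16345 (0.0857%), 11 higher and 3 lower in the CAL-101 group. All 13 melanoma genes were tested and none passed (edgeR adjusted p = 1.00 for each). Of the 13, 11 had a positive log2 fold change, with a median of 0.50, against 2453 of 4571 and a median of 0.04 over all genes tested. The cells of each depth were spread unevenly over the mice, and their part in this was not tested. Dct averaged 5163 ± 2129 CPM in the CAL-101 and 3372 ± 1273 CPM in the control mice (SD, n = 3 each; log2 fold change 0.59, SE 0.42), so that the difference lay within the spread between mice. These sums rested on 6 to 65 cells a mouse, and in CAL-101 mouse 3 a single cell held 80324 of the 96325 UMIs.

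The genes with the smallest p are named next, and none was called with the filter on low counts. Without that filter edgeR called 4 of the 8: Sytl2 (adjusted p = 0.00563), Gsta4 (0.0113), Rsad2 (2.99e-05) and Ifit1 (0.00563). Sytl2, an effector of Rab27 in the transport of granules and melanosomes, had 59.5, 45.3 and 83.1 CPM in the CAL-101 mice and 0, 2.32 and 3.04 CPM in the control mice. Its groups did not overlap (log2 fold change 4.39, SE 0.77, edgeR adjusted p = 0.523), and it rested on 30, 10 and 8 UMIs in the CAL-101 against 0, 1 and 1 in the control mice. Egr1, an immediate early transcription factor, had 216, 113 and 291 CPM in the CAL-101 mice and 0, 30.1 and 73.0 CPM in the control mice (log2 2.27). Airn, which lies antisense to Igf2r and whose reads may not be told apart from it, and Gsta4, a glutathione transferase, had log2 fold changes of 1.85 and 2.70. In the other direction, Rsad2 and Ifit1, interferon-stimulated genes, had log2 fold changes of -3.37 and -2.63. Rsad2 had 65.4, 63.4 and 31.1 CPM in the CAL-101 mice and 82.4, 30.1 and 1606 CPM in the control mice, and without control mouse 3 its log2 fold change was 0.07. Ifit1 had 43.6, 45.3 and 31.1 CPM in the CAL-101 mice and 54.9, 30.1 and 642 CPM in the control mice, and without control mouse 3 its log2 fold change was -0.05. A single top-band cell held 509 of the 594 Rsad2 UMIs of that band. Pofut2 and Pfn2 had log2 fold changes of -1.26 and -1.39. For these 7 genes edgeR's adjusted p with the filter was 1.00.

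Antibody tags were compared in the same way over 102 antibodies. In some mice the sums leaned on single cells. A cell of CAL-101 mouse 3 held 27309 of its 32234 tags. In control mouse 1 a cell with 89.7% mitochondrial UMIs held 12571 of 18585 tags. In control mouse 2 cells with 82.6 and 88.6% mitochondrial UMIs held 12616 and 11015 of 43017 tags. None passed an adjusted p of 0.05 in edgeR (0% called), 6 had an unadjusted p under 0.05, and DESeq2 called 1 (0.98%). That was CD107a, which made up 1.52, 1.42 and 1.29% of tags in the CAL-101 mice and 5.39, 2.48 and 4.88% in the control mice. Its groups did not overlap (log2 fold change -1.59, SE 0.44, edgeR adjusted p = 0.678, DESeq2 adjusted p = 0.0438). CD63, another protein of lysosomes, had a log2 fold change of -0.88 with no overlap (edgeR adjusted p = 0.678). CD8a and CD5, T cell surface proteins, had log2 fold changes of 1.83 and 1.80 (edgeR adjusted p = 0.678), and CD8b and Tim-4 of 1.51 and 0.99. The values of CD5, CD8a and CD8b moved with single CAL-101 mice. Without CAL-101 mouse 3 edgeR called CD5, CD8a and CD8b higher, with log2 fold changes of 2.23, 2.30 and 1.96 (adjusted p = 0.0254, 0.0355 and 0.0254). Without CAL-101 mouse 1 they were 1.28, 0.98 and 1.07 (adjusted p = 0.948 for each). The log2 fold changes of CD69 and CD90.2 were -0.53 and -1.09. CD44 and CD49f had log2 fold changes of 0.30 (SE 0.95) and 0.26 (SE 0.41), both smaller than their errors (edgeR adjusted p = 0.989 and 0.967).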

How the data were processed

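The authors deposited UMI counts, whole and unscaled, per cell for 32285 genes and 102 antibodies, which Cell Ranger 7.1.0 produced, per the file headers, and the submitters' processing notes name the build mm10. The deposited cell tables gave each cell its mouse, cluster and label. The sources do not say how cells were filtered, and the smallest cell held 500 RNA UMIs. The rule took every cell of cluster 12. The members and gene lists were chosen with earlier results of these data known, and UMI bands and the subset with 8 or more melanoma genes after the data were seen.

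Counts were pooled per band or summed per mouse. A lineage was counted in a cell at UMIs of 3 or more of its genes. Genes named as leading had at least 100 CPM and were found in at least 20% of cells of the cluster, with ribosomal, mitochondrial, Gm and Rik entries left out. In the comparison of the groups the 4 smallest p each way were named. Sums were tested with the quasi-likelihood test of edgeR 4.0.16 in R 4.3.3, after TMM scaling and filterByExpr, with the group alone in the model and Benjamini-Hochberg adjustment at 0.05, with DESeq2 1.42.0 as an alternative. The edgeR script was tested on simulated data first. Shares were compared by exact permutation over the 20 assignments of the 6 mice. Intervals were exact binomial (Clopper-Pearson), and with the floor of 3 counts they cover counting error only. No doublet caller was run, and cells carrying 2 or more lineages were left out as an alternative. The labels give each library to a separate mouse. The rest was computed in Python 3.11.15 (pandas 2.3.3, scipy 1.17.1, numpy 2.4.6) and drawn with matplotlib 3.10.9. Of the gene identifiers, 32158 matched the gene table used for names.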

Additional observations from a re-analysis of the deposited data

How the results depend on the processing

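The share difference of 0.246 points turned to -0.00956 without CAL-101 mouse 2 and to -0.0111 among cells with neither a T cell nor an NK label, and ran from -0.00956 to 0.397 with 1 mouse left out. No RNA was called with 1 mouse left out (0 to 0), and 14 genes without a filter on low counts; tags gave 1 call with DESeq2 and 0 to 3 with 1 mouse left out. Rsad2 ran from a log2 of -3.96 to 0.0695 with 1 mouse left out, and reversed to 0.0695 without control mouse 3. Cells with 3 or more melanoma genes were 61.9%, with 2 or more 81.4%, with 4 or more 44.9%, thinned to 500 UMIs 38.1%, and 59.6 to 77.4% with 1 mouse left out. For T cell genes these were 47.5, 87.3, 18.6, 18.6 and 41.5 to 50%. CD44 tags fell to 2.20% and CD49f to 3.38% as the median of the cells' shares, against 10.5 and 4.15% pooled, and with 1 mouse left out ran from 8.32 to 13.3% and from 3.91 to 4.40%. In these sets the cause was not tested. For the 16 named genes and antibodies, 147 of 156 values kept their direction and their side of the threshold, 8 passed it and 1 reversed. The alternative of edgeR on cell numbers gave a log2 ratio of 1.45 for the share (SE 0.84, adjusted p = 0.197).

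Deviations of same-numbered mice from their group means had correlations of 0.000525, -0.252 and 0.137 for RNA. For tags these were -0.0769, 0.172 and 0.341, of mixed sign too. Differently numbered mice were not set beside them. With the replicate number as a block, the share difference was 0.246 (exact sign-flip p = 0.5, smallest possible 0.25) and edgeR called 0 genes and 0 antibodies. Depth limits the cells under 1000 UMIs, where a gene with no UMI can still stand at 78.9 CPM.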

Other observations

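In cluster 12, 5 cells had more than 20 UMIs of the T cell list or 10 or more of the NK cell list, limits chosen after the data were seen, and 4 of them are given here with their UMIs of the melanoma list, which ranged widely. The deepest cell, of CAL-101 mouse 1 and labelled NK cells, had 148002 UMIs, 1845 UMIs of all 13 melanoma genes, 67 of the NK cell list, 47 of Ptprc and 37 of Prf1, the pore-forming protein of cytotoxic cells. CD44 made up 30.6% of its tags and CD45 3.48%. A cell of CAL-101 mouse 2 labelled T cells had 13847 UMIs, 178 of the T cell list and 23 of the melanoma list, with 9.21% CD45 and 5.28% CD8a tags. A second cell of that mouse had 5380 UMIs, 73 of the T cell list and 26 of the melanoma list over 8 genes, with 8.29% CD45 and 4.98% CD8a tags. In control mouse 1, a cell labelled T cells had 7660 UMIs, 10 of the NK cell list and 8 of the melanoma list, with 9.08% CD45 tags. These 4 cells had CD45 shares above the 0.527% of the pooled top band, to which those of 148002 and 13847 UMIs themselves belong. They were not the only ones. Cells of CAL-101 mouse 2 with 1915 and 4139 UMIs had 13.2 and 11.5% CD45 tags. A top-band cell of CAL-101 mouse 1 had 5.64%. In the middle band CD45 made up 0.789, 3.67 and 0.173% of tags in the CAL-101 mice. In the control mice it made up 4.56, 0.300 and 0.808% there.

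A further 7 cells, from 4 mice, had 65.0 to 89.7% mitochondrial UMIs and 2 to 8 melanoma genes, with a median of 9014 antibody tags, against 4096 in the cells of 10000 or more UMIs. Their labels were NK cells (4) and T cells (3). At the other extreme, 9 cells from 4 mice had 2000 or more UMIs with less than 1% mitochondrial UMIs and at most 5 Malat1 UMIs, at a median of 3273 UMIs. Among the other clusters 68 of 40484 cells with 2000 or more UMIs met the same limits, which were chosen after the data were seen.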
